A study of Mus musculus with 24 samples.

Results

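10 genes of the smooth muscle and myofibroblast cytoskeleton were followed across 24 bulk RNA-seq libraries of mouse embryonic fibroblasts: the actins Acta2 and Actg2, the actin-binding proteins Tagln, Cnn1 and Cnn2, the myosin subunits Myh11 and Myl9, and the filament regulators Tpm1, Tpm2 and Cald1. They were chosen by name and matched by symbol to the Ensembl identifiers of the count table. All 10 had enough counts to be tested, among 16573 tested genes of 45706 in the table. The cells came from E13.5 embryos and had 1 of 4 genotypes, Vhl, Vhl/Rassf1a, Rassf1a or WT. Each genotype had 3 libraries called Cre and 3 called GFP. The labels mark every Cre library as a knockout, WT Cre included, and every GFP library as a control, so WT Cre against WT GFP shows what Cre did in cells with no named target. Neither the way Cre and GFP were delivered, nor the deleted exons, the strain, nor the embryos and cultures behind each library are given in the labels, so p-values measure the spread between these libraries, which may be technical. The series concerns gene expression after loss of Vhl and Rassf1a in relation to kidney cancer. Its design note names tubule epithelium of the kidney and not fibroblasts; the sample labels were followed.

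Library totals were 29.9 to 55.8 M counts, and the 10 genes took 0.995 to 1.37% of them. The smallest count of any of the 10 in any library was 1473, for Myh11. Vhl averaged 2.57 ± 0.257 CPM (counts scaled to the size of the library) in Vhl Cre and 26.7 ± 0.972 CPM in Vhl GFP libraries, and 2.10 ± 0.523 CPM in Vhl/Rassf1a Cre and 22 ± 1.59 CPM in Vhl/Rassf1a GFP libraries (SD, n = 3 each). The row for Rassf1 holds all its isoforms, so its counts do not check the Rassf1a label. All 10 fibroblast markers looked at, such as Col1a1 and Pdgfra, were present in every group, at a summed level between 25400 and 38000 CPM. Epcam and Cdh1, which define epithelium, reached at most 0.371 and 0.518 CPM in any library. Other epithelial markers were present: Krt19 averaged 80.1 CPM, with 33.2 to 182 CPM in single libraries, and Krt18 8.02 CPM. A pair of GFP libraries deviated from the others of their group. Compared within its group by chi-square of counts over its degrees of freedom, Rassf1a GFP replicate 1 gave 27.3 and 40.8. Vhl/Rassf1a GFP replicate 2 gave 47.5 and 51.9, and no other pair of replicates exceeded 9.05. Rassf1a GFP replicate 1 was the highest of its group in 9 of the 10 genes and Vhl/Rassf1a GFP replicate 2 in 8 of the 10, and both were the lowest for Cald1. Such ranks were not particular to them: Vhl Cre replicate 2 was the highest in 9, WT Cre replicate 2 in 8, and Vhl GFP replicate 1 the lowest in 9. Across 12930 genes, the deviations of this pair of GFP libraries correlated at 0.82, each taken from the mean of the other libraries of its group. Genes are not independent replicates there. Where leaving out both changed a count of called genes or a call, that value is given too. Both were high in most of the 10 genes, so leaving them out had to lower the GFP means of those genes. Calls gained that way are no separate support. Shares of tested genes called are from the fit of all libraries.

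Contraction in smooth muscle cells and myofibroblasts rests on actin filaments, of which Acta2 encodes the best-known subunit, and on myosin, whose heavy chain Myh11 marks differentiated smooth muscle and whose light chain Myl9 is phosphorylated to start contraction. Tropomyosins, caldesmon and calponins lie along the actin filament and govern how myosin reaches it, and Tagln bundles and stabilises filaments. Many of these genes are switched on together by serum response factor (SRF) and its cofactors of the myocardin family, which bind a promoter element called the CArG box, and fibroblasts raise them when TGF-beta or stiff culture plastic turns them into myofibroblasts. Vhl encodes the subunit by which a ubiquitin ligase binds the hypoxia-inducible factors, and Rassf1a is a scaffold protein that binds microtubules and the Hippo kinases.

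The CArG box is the element by which many of these promoters are known, so the windows that hold it are shown. The 250 bases before the annotated start were taken from RefSeq on GRCm38.p6 for 7 of the 10 genes, in 8 windows, since Cald1 has 2 starts. Actg2, Tagln and Myh11 had no window there, so their promoters were not searched. Printed are the promoter of Acta2, the most abundant of the 10, that of Tpm1, which fell in both genotypes that lost Vhl, and those of Cnn2 and Myl9, which hold an exact CArG box. They run 5′ to 3′ on the strand of the gene, and capitals mark 10-letter stretches that match the CArG box with at most 1 departure.
Acta2, chr19:34255374-34255623, minus strand: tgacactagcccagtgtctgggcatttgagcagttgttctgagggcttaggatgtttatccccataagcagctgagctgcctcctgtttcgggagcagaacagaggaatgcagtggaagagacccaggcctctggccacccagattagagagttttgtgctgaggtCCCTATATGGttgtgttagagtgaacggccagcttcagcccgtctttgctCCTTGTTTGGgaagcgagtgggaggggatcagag
Tpm1, chr9:67049214-67049463, minus strand: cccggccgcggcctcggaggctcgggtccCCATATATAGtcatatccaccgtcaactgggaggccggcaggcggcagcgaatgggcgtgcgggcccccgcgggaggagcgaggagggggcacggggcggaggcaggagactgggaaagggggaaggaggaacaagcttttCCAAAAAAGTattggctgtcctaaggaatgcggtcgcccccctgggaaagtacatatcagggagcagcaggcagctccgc
Cnn2, chr10:79988350-79988599, plus strand: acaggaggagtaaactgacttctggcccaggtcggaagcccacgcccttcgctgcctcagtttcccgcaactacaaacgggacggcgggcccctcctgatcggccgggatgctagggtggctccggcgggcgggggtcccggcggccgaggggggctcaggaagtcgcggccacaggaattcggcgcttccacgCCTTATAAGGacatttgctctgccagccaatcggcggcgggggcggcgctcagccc
Myl9, chr2:156775214-156775463, plus strand: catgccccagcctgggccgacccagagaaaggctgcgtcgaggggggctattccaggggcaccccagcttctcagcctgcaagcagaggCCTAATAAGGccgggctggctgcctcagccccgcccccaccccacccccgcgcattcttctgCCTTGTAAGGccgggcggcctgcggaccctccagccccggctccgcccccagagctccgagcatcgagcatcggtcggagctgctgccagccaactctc
An exact CArG box was present in 2 of the 8 windows and in 1.47% of 32851 RefSeq windows of the same length, searched on both strands. It lay 56 to 47 bases before the start in Cnn2 and 161 to 152 in Myl9. With at most 1 departure, 5 of the 8 windows matched, against 18.6% of all windows. Acta2 had matches 84 to 75 and 34 to 25 bases before its start, Tpm1 221 to 212 and 80 to 71, Myl9 another 99 to 90, and Cald1 203 to 194. The letters CATTCC, in which TEAD factors bind, were on either strand of 3 of the 8 windows, those of Acta2, Tpm1 and the upstream start of Cald1, against 12.6% of all. The letters ACGTG, 1 form of the core bound by hypoxia-inducible factors, were in 0 of the 8 windows and in 16.6% of all. The form GCGTG was not counted. It is present in the printed window of Tpm1 and, on the other strand, in that of Cnn2. A match describes the letters only and shows no binding.

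The 10 genes covered a wide range of levels. Per kilobase of exon and over all 24 libraries, Acta2 stood at 1637 CPM per kb, Tagln at 896, Myl9 at 387 and Cnn2 at 346. Tpm1, Tpm2, Cald1, Cnn1 and Actg2 followed between 265 and 115 CPM per kb. Myh11 was far below, at 8.52 CPM per kb, so RNA for smooth muscle myosin heavy chain was scarce beside that for smooth muscle actin. Between the highest and the lowest of the 8 group means, log2 CPM differed by 0.23 for Cald1 to 0.72 for Myh11, with a median of 0.54 over the 10 genes. The median over all tested genes was 0.55, and over the 3341 genes at least as abundant as Myh11 it was 0.32. None of the 10 spanned a log2 difference of 1, the size set for naming genes of similar pattern, so none is named.

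**Figure D1:**
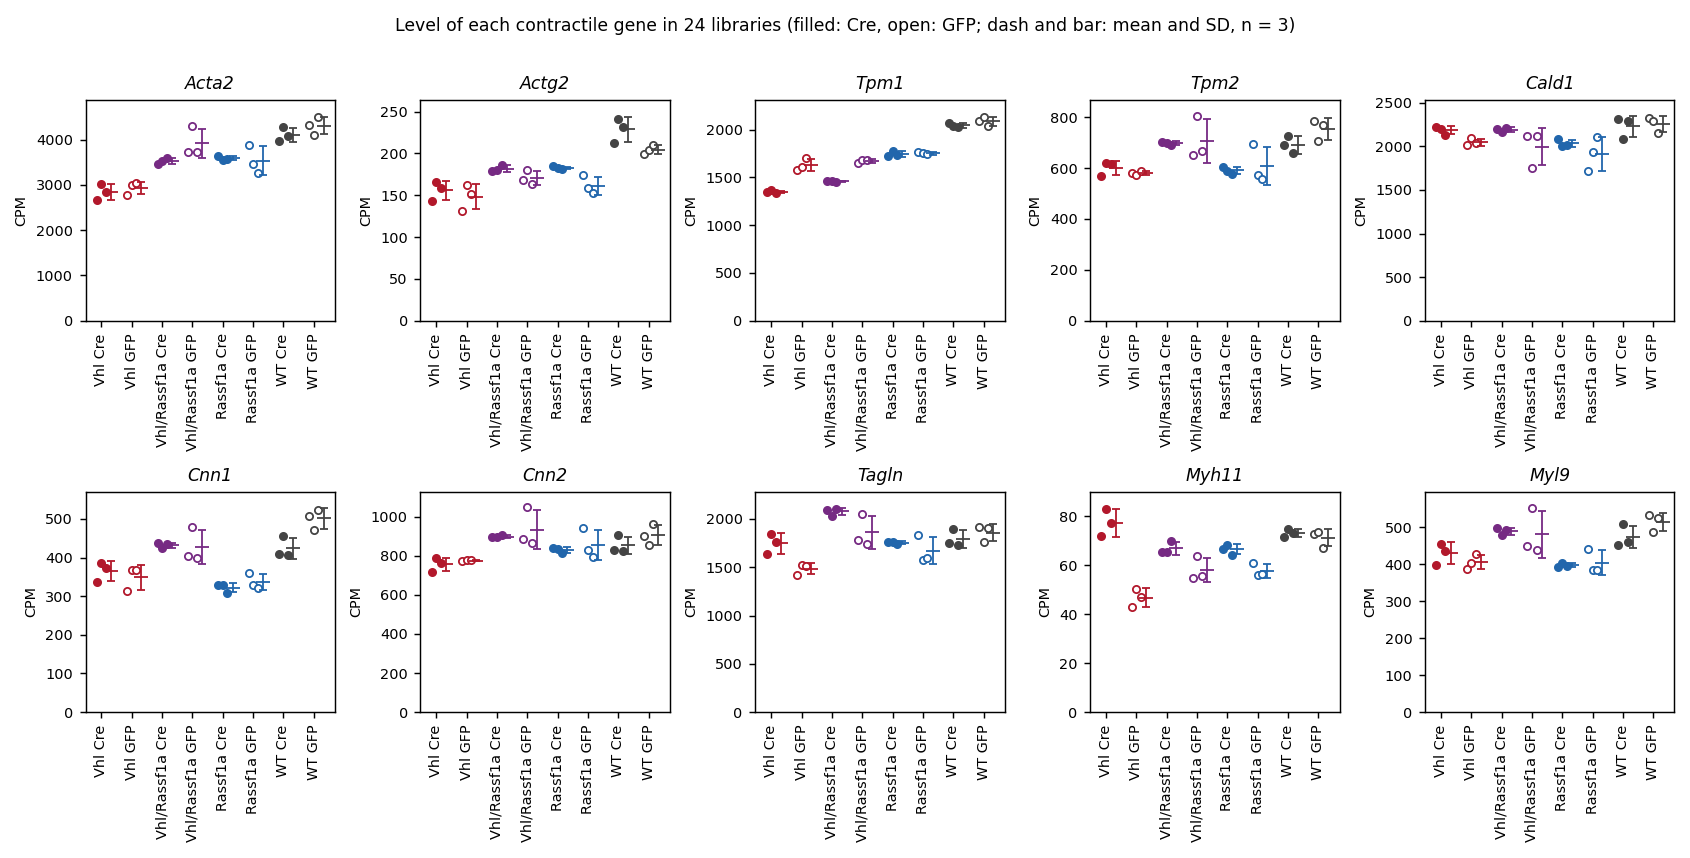
Level of each of the 10 genes in CPM (linear axes, 1 panel per gene) in every library of the 8 groups, with Cre filled and GFP open; the dash and bar are the group mean and SD of 3 libraries. Myh11 lies at 71.7 to 82.9 CPM in Vhl Cre and at 42.8 to 50.4 CPM in Vhl GFP libraries, and Tpm1 at 1332 to 1363 CPM in Vhl Cre and at 1575 to 1702 CPM in Vhl GFP libraries.

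Without Cre, most of the 10 RNAs were lower in Vhl and in Rassf1a cells than in WT cells, and 4 of the 10 were lower in Vhl/Rassf1a cells. In Vhl GFP against WT GFP libraries, 9 of the 10 genes fell past the threshold, an adjusted p under 0.05 over all tested genes, where 14.9% of tested genes fell and 32.1% changed in either direction. All 10 genes, Cald1 included, were lower in every Vhl GFP library than in every WT GFP library, a separation seen in 48.5% of tested genes in either direction. Their median log2 fold change was -0.36, beside 0.0059 over all tested genes. In Rassf1a GFP against WT GFP libraries, 8 of the 10 fell, where 6.68% of tested genes fell and 16.1% changed either way. The same number, 8, did not overlap between the groups, against 27.8% of tested genes, and the median was -0.29 beside 0.0099. In Vhl/Rassf1a GFP against WT GFP libraries, 4 of the 10 fell, Actg2, Cnn1, Myh11 and Tpm1, where 4.68% of tested genes fell and 11.5% changed either way. There 4 genes did not overlap, Actg2, Myh11, Tpm1 and the uncalled Cald1, against 22.8% of tested genes, and the median was -0.16 beside 0.0033. Actg2, Cnn1, Myh11 and Tpm1 were past the threshold in each of these comparisons. All of them use the same 3 WT GFP libraries, so they are not independent of each other. Without the pair of libraries that stood apart, all 10 genes fell in Rassf1a GFP libraries, and 7 in Vhl/Rassf1a GFP libraries, where Acta2 (-0.21, adjusted p = 0.00353), Myl9 (-0.22, adjusted p = 0.00533) and Tpm2 (-0.20, adjusted p = 0.00266) joined. The pair was high in most of the 10 genes, so leaving it out lowers these GFP means by itself. In bulk RNA, fewer cells of a contractile type and less RNA per cell cannot be told apart, here and in all that follows.

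**Figure D2:**
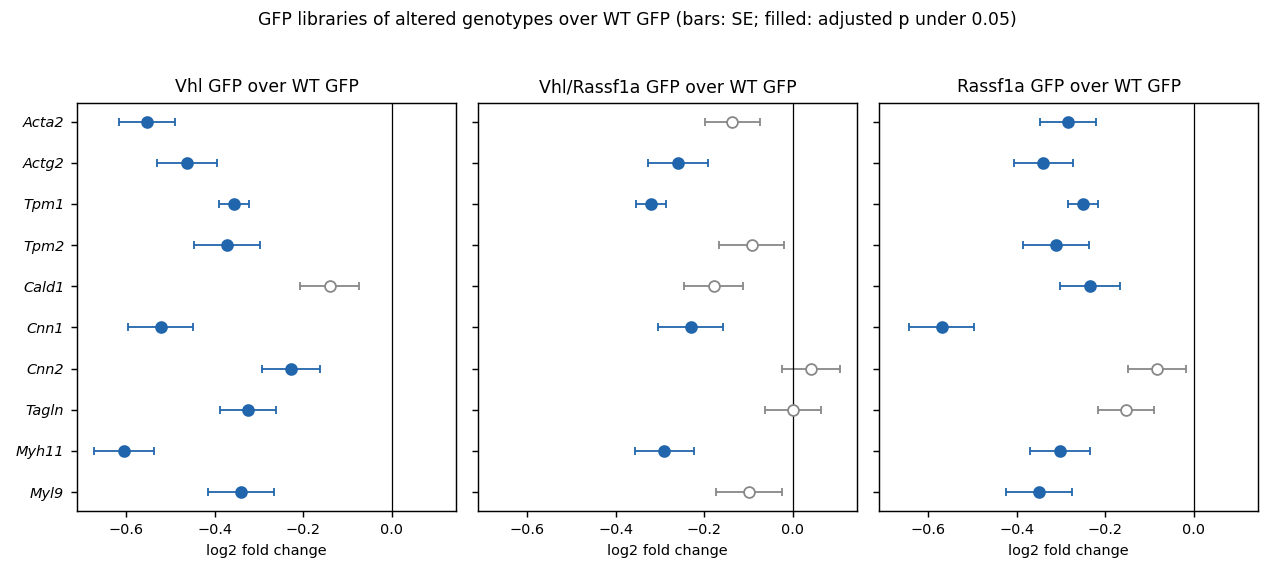
Log2 fold change (points, with SE as bars) of each of the 10 genes in Vhl, Vhl/Rassf1a and Rassf1a GFP libraries against WT GFP libraries; filled points have an adjusted p under 0.05, n = 3 libraries per group. Filled points lie below 0 throughout, 9 in the Vhl, 4 in the Vhl/Rassf1a and 8 in the Rassf1a comparison, with Myh11 in Vhl GFP libraries lowest at -0.61.

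Cre moved few of the 10 genes and in different directions. In Vhl Cre against Vhl GFP libraries, Myh11 and Tagln rose and Tpm1 fell, and the other 7 did not pass the threshold. That is 3 of 10, where 36.1% of tested genes changed, 17.4% up and 18.7% down, a share near that of the 10. Groups did not overlap for 4 of the 10, Myh11, Tagln and Cald1 higher and Tpm1 lower with Cre, against 52.7% of tested genes, and the median log2 fold change was 0.067 beside -0.011 over all tested genes. In Vhl/Rassf1a Cre against Vhl/Rassf1a GFP libraries, Myh11 rose and Tpm1 fell, 2 of 10, where 29.7% of tested genes changed, 14.9% up and 14.8% down. Myh11 and Cald1 lay higher and Tpm1 and Acta2 lower in every Cre library, 4 of 10, against 39.1% of tested genes, with a median of 0.021 beside 0.00027. Without the pair of libraries that stood apart, 4 of the 10 passed in Vhl/Rassf1a cells: Tagln (0.24, adjusted p = 0.00041), Myh11 (0.28, adjusted p = 0.000718) and Myl9 (0.14, adjusted p = 0.042) rose and Tpm1 (-0.19, adjusted p = 0.00015) fell. The GFP library left out there was high in most of the 10 genes, which by itself raises Cre over GFP for them.

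In cells that kept Vhl, none of the 10 genes passed edgeR's threshold after Cre. In Rassf1a Cre against Rassf1a GFP libraries the count was 0 of 10, where 0.392% of tested genes changed; 2 genes had an unadjusted p under 0.05 and 0 passed by the Wald test of DESeq2. Actg2 (0.18, adjusted p = 0.528) and Myh11 (0.20, adjusted p = 0.356) lay higher in every Rassf1a Cre library, 2 of 10, against 10.7% of tested genes without overlap. Without the pair of libraries that stood apart, Myh11 had a log2 fold change of 0.25 with an adjusted p of 0.0486, while it was called in 0 of 6 fits that left out 1 library. In WT Cre against WT GFP libraries the count was again 0 of 10, where 1.26% of tested genes changed; 2 genes had an unadjusted p under 0.05 and 0 passed by the Wald test. These were Actg2, higher in every Cre library (0.16, adjusted p = 0.419), and Cnn1, lower in every Cre library (-0.24, adjusted p = 0.151), where 15.0% of tested genes did not overlap. Cnn1 passed in a fit of only the WT libraries (adjusted p = 0.0342) and with no filter on low counts (adjusted p = 0.00213). The median of the 10 was 0.0073 in Rassf1a cells beside -0.0056 over all genes, and -0.059 in WT cells beside -0.00037.

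**Figure D3:**
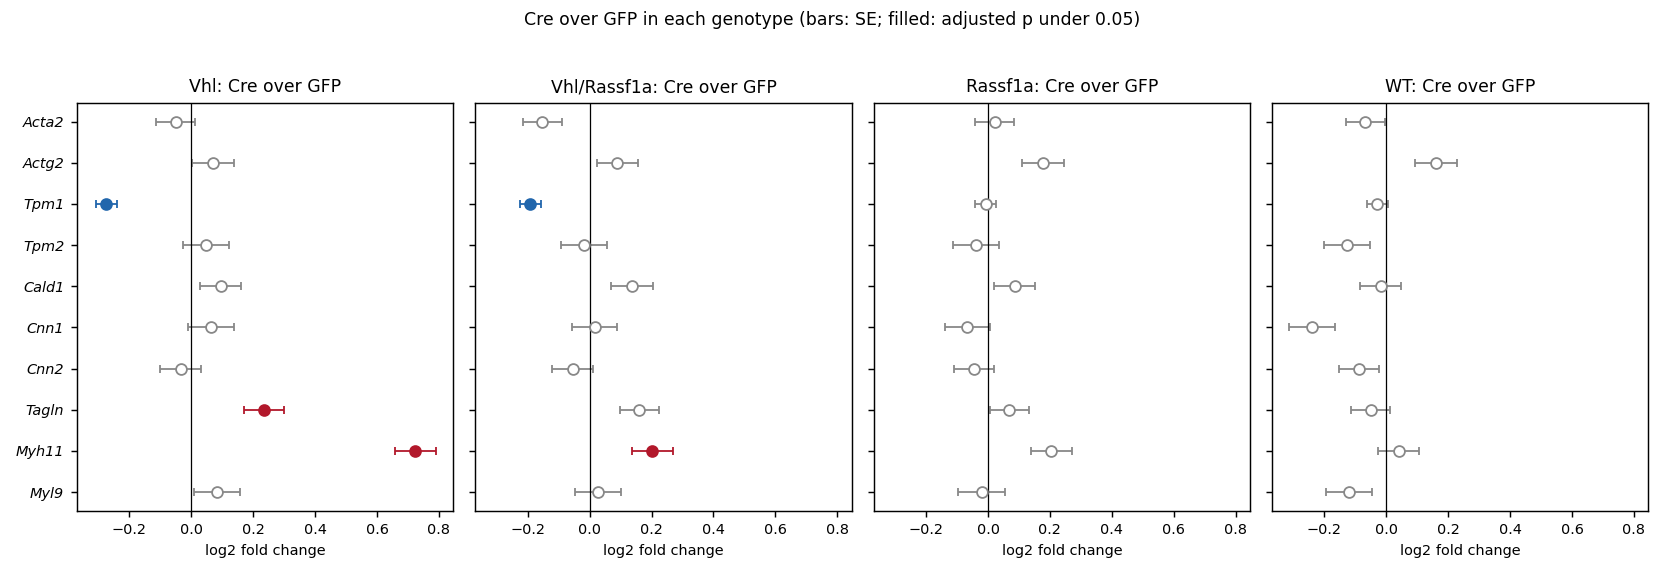
Log2 fold change of Cre over GFP (points, with SE as bars) of each of the 10 genes in Vhl, Vhl/Rassf1a, Rassf1a and WT cells; filled points have an adjusted p under 0.05, n = 3 libraries per group. Myh11 stands at 0.72 in Vhl cells and 0.20 in Vhl/Rassf1a cells, and Tpm1 at -0.27 and -0.19.

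The Cre effects were then set against each other. Between Vhl and WT cells the effect differed for 4 of the 10 genes, Myh11, Tagln and Cnn1 upward and Tpm1 downward in Vhl cells, where 23.2% of tested genes differed. Between Vhl/Rassf1a and WT cells it differed for Tpm1 alone, against 14.8% of tested genes. Between Vhl/Rassf1a and Vhl cells it differed for Myh11 alone, against 6.09%, and between Vhl/Rassf1a and Rassf1a cells for Tpm1 alone, against 15.0%. Between Rassf1a and WT cells it differed for 0 of the 10 by edgeR and by the Wald test of DESeq2, with 0 at an unadjusted p under 0.05, and for 0.00603% of tested genes, that is 1 gene. Those with WT cells share the WT libraries. Leaving out the pair of libraries that stood apart raised the count between Vhl/Rassf1a and WT cells to 6, with Tagln (0.29), Cnn1 (0.35), Myh11 (0.24), Myl9 (0.27) and Tpm2 (0.22) upward and Tpm1 (-0.15) downward in log2 units. The upward shift follows in part from leaving out a GFP library that was high in most of the 10 genes.

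Acta2 (ENSMUSG00000035783, chr19:34241090-34255590, minus strand, GRCm38) encodes smooth muscle alpha-actin, the usual marker of myofibroblasts. It had 2663, 3012 and 2834 CPM in Vhl Cre libraries, against 2787, 2987 and 3037 CPM in Vhl GFP libraries. With both genes targeted, it had 3456, 3519.5 and 3599 CPM in Vhl/Rassf1a Cre and 3726, 4295 and 3734 CPM in Vhl/Rassf1a GFP libraries. The groups overlapped in Vhl cells, while in Vhl/Rassf1a cells every Cre library lay below every GFP library. Acta2 stood at 3643, 3554 and 3573 CPM in Rassf1a Cre and 3885, 3455 and 3270.1 CPM in Rassf1a GFP libraries, and at 3976, 4279 and 4073 CPM in WT Cre and 4324, 4108 and 4493 CPM in WT GFP libraries. Both of these pairs overlapped, and all 6 Vhl libraries were below all others. The Cre effect on Acta2 did not pass the threshold in any genotype in the fit of all libraries, with log2 fold changes of -0.05 ± 0.063 (SE) in Vhl cells (adjusted p = 0.58) and -0.15 ± 0.063 in Vhl/Rassf1a cells (adjusted p = 0.0703). The fall in Vhl/Rassf1a Cre libraries passed with no filter on low counts (adjusted p = 0.00589), with library totals in place of TMM (0.0196) and without GFP replicate 1 (0.0464) or 3 (0.0477), and without the pair of libraries that stood apart it was -0.081 (adjusted p = 0.218). Differences between genotypes were called: Acta2 fell by 0.55 in Vhl GFP libraries against WT GFP (SE 0.063, adjusted p = 3.8e-07), and the log2 fold change in Rassf1a GFP libraries was -0.28 ± 0.063 (adjusted p = 0.00226). Ordered by mean, the level of Acta2 ran from WT GFP, WT Cre and Vhl/Rassf1a GFP through Rassf1a Cre, Rassf1a GFP and Vhl/Rassf1a Cre to Vhl GFP and Vhl Cre, and neighbours in that order overlapped except at the joins between these 3 sets.

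Actg2 (ENSMUSG00000059430, chr6:83512905-83536265, minus strand) encodes smooth muscle gamma-actin, the form of the gut wall. Its level was 156 ± 11.4 CPM in Vhl Cre and 148 ± 15.3 CPM in Vhl GFP libraries, 182 ± 3.89 CPM in Vhl/Rassf1a Cre and 171 ± 8.66 CPM in Vhl/Rassf1a GFP libraries (SD, n = 3 each). It was 183 ± 1.47 CPM in Rassf1a Cre and 161 ± 10.8 CPM in Rassf1a GFP libraries, and 229 ± 14.4 CPM in WT Cre and 204 ± 5.31 CPM in WT GFP libraries. The mean was higher with Cre in all 4 genotypes, by log2 fold changes of 0.07, 0.09, 0.18 and 0.16 in Vhl, Vhl/Rassf1a, Rassf1a and WT cells, and none passed the threshold (adjusted p = 0.457, 0.349, 0.528 and 0.419). Actg2 was below WT GFP in the GFP libraries of each altered genotype, with log2 fold changes of -0.46 ± 0.067 in Vhl, -0.26 ± 0.067 in Vhl/Rassf1a and -0.34 ± 0.067 in Rassf1a cells (adjusted p = 1.11e-05, 0.0116 and 0.000798). The call in Vhl/Rassf1a cells was lost without Vhl/Rassf1a GFP replicate 3 (adjusted p = 0.0504).

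Tagln (ENSMUSG00000032085, chr9:45929619-45936058, minus strand) encodes transgelin, an early marker of smooth muscle. It had 1636, 1848 and 1758 CPM in Vhl Cre libraries, against 1422, 1525 and 1509 CPM in Vhl GFP libraries. All 3 Vhl Cre libraries were above all 3 Vhl GFP libraries, with a log2 fold change of 0.23 ± 0.063 (SE, adjusted p = 0.0054). Tagln stood at 2095, 2032 and 2106 CPM in Vhl/Rassf1a Cre and 1783, 2051 and 1744 CPM in Vhl/Rassf1a GFP libraries. Only GFP replicate 2, which stood apart, reached into the Cre range, and the log2 fold change of 0.16 ± 0.063 did not pass the threshold (adjusted p = 0.0611). It passed with size factors of DESeq2 in edgeR (adjusted p = 0.044), by the Wald test of DESeq2 (0.0389), with no filter on low counts (0.0379) and without that replicate (0.00391). Tagln had 1761, 1765 and 1737 CPM in Rassf1a Cre and 1837, 1579.6 and 1600.2 CPM in Rassf1a GFP libraries, and 1755, 1899 and 1730.4 CPM in WT Cre and 1915, 1758 and 1904 CPM in WT GFP libraries. Both pairs overlapped. Vhl GFP libraries held the lowest Tagln of all groups, -0.32 ± 0.063 against WT GFP (adjusted p = 0.00036), and Vhl/Rassf1a Cre libraries the highest. In Rassf1a GFP libraries Tagln was at -0.15 ± 0.063 against WT GFP, which did not pass (adjusted p = 0.114). That fall passed with no filter on low counts (adjusted p = 0.00848), without Rassf1a GFP replicate 1 (0.0151) and without the pair that stood apart (-0.24, adjusted p = 0.000796). The Cre effect was larger in Vhl than in WT cells by 0.29 ± 0.09 (adjusted p = 0.023), a difference that lost significance without WT GFP replicate 1 or 3, WT Cre replicate 1 or 3, Vhl GFP replicate 1 or Vhl Cre replicate 2. Tagln shares 1241 exon bases with the antisense gene Gm48529 and 108 with Pcsk7 on the opposite strand. Whether strand was used in counting is not stated in the sources used here, and reads of these partners may be among its counts.

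The calponins bind actin and slow the actomyosin ATPase, Cnn1 (ENSMUSG00000001349, chr9:22099216-22109630, plus strand) mainly in smooth muscle and Cnn2 (ENSMUSG00000004665, chr10:79988584-79996062, plus strand) in many cell types. Cnn1 had 337, 386 and 372 CPM in Vhl Cre and 312, 368 and 367 CPM in Vhl GFP libraries. It had 437, 424 and 434 CPM in Vhl/Rassf1a Cre and 404, 478 and 399 CPM in Vhl/Rassf1a GFP libraries. In both genotypes the groups overlapped, with log2 fold changes of 0.064 (adjusted p = 0.545) and 0.016 (adjusted p = 0.903), the second of which was 0.11 without the pair of libraries that stood apart (adjusted p = 0.202). In Rassf1a cells Cnn1 had 329, 329 and 309 CPM with Cre and 361, 329.9 and 321 CPM with GFP, and in WT cells 409, 456 and 408 CPM with Cre and 508, 472 and 523 CPM with GFP. Rassf1a libraries overlapped, while every WT Cre library was below every WT GFP library. The Cre effect on Cnn1 was higher in Vhl than in WT cells by 0.30 ± 0.10 (adjusted p = 0.0365), with no call in either genotype alone; it lost significance in 7 of 12 fits that left out 1 library, those named for Tagln and Vhl Cre replicate 3. Among GFP libraries, Cnn1 had the widest drop of the 10 in Rassf1a cells, -0.57 ± 0.074 against WT GFP (adjusted p = 5.31e-06), and was at -0.52 ± 0.074 in Vhl cells (adjusted p = 7.62e-06). In Vhl/Rassf1a cells it was -0.23 ± 0.073 (adjusted p = 0.044), a call lost without WT GFP replicate 1 or 3, without Vhl/Rassf1a GFP replicate 1 or 3, and in a fit of only these groups (adjusted p = 0.168). Cnn2 moved less. Its means lay between 757 CPM in Vhl Cre and 934 CPM in Vhl/Rassf1a GFP libraries. After Cre its log2 fold changes were -0.035 in Vhl, -0.055 in Vhl/Rassf1a, -0.045 in Rassf1a and -0.089 in WT cells, none called. Its single call in the fit of all libraries was a fall in Vhl GFP against WT GFP libraries (-0.23 ± 0.065, adjusted p = 0.00992), lost without WT GFP replicate 3. Without the pair of libraries that stood apart, Cnn2 also fell in Rassf1a GFP against WT GFP libraries (-0.17, adjusted p = 0.00871).

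Myh11 (ENSMUSG00000018830, chr16:14194535-14291372, minus strand), the smooth muscle myosin heavy chain, showed the widest Cre effect of the 10. It had 71.7, 82.9 and 77.2 CPM in Vhl Cre libraries, against 42.8, 50.4 and 47.2 CPM in Vhl GFP libraries. The groups stood far apart, with a log2 fold change of 0.72 ± 0.067 (SE, adjusted p = 1.16e-08). Myh11 had 65.6, 65.3 and 69.9 CPM in Vhl/Rassf1a Cre and 54.9, 63.8 and 55.8 CPM in Vhl/Rassf1a GFP libraries. The groups did not overlap but nearly met, at 65.3 CPM in the lowest Cre and 63.8 CPM in the highest GFP library. The log2 fold change there was 0.20 ± 0.067 (adjusted p = 0.0252), and it kept its call in 2 of 6 fits that left out 1 library, being lost without replicate 1 or 3 of either group; in a fit of only these 2 groups its adjusted p was 0.109, and with no filter on low counts 0.0535. In Rassf1a cells Myh11 had 66.8, 68.4 and 64.3 CPM with Cre and 61, 55.8 and 56.3 CPM with GFP, and in WT cells 71.5, 74.8 and 73.3 CPM with Cre and 72.9, 73.4 and 67.2 CPM with GFP. Every Rassf1a Cre library was above every Rassf1a GFP library, and WT libraries overlapped. The Cre effect was larger in Vhl than in WT cells by 0.68 ± 0.095 (adjusted p = 8.81e-06) and the effect in Vhl/Rassf1a cells minus that in Vhl cells was -0.52 ± 0.095 (adjusted p = 0.00126), both called in each of 12 fits without 1 library. In the order of levels, Vhl Cre, WT Cre, WT GFP, Vhl/Rassf1a Cre and Rassf1a Cre overlapped from neighbour to neighbour, Vhl/Rassf1a GFP and Rassf1a GFP came next, and Vhl GFP was lowest, with a log2 fold change of -0.61 ± 0.067 against WT GFP (adjusted p = 2.91e-07). The falls of Myh11 in Rassf1a GFP (-0.30 ± 0.067, adjusted p = 0.00241) and Vhl/Rassf1a GFP libraries (-0.29 ± 0.067, adjusted p = 0.00456) were smaller in size, and that in Vhl/Rassf1a GFP libraries had an adjusted p of 0.0692 in a fit of only these groups.

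Myl9 (ENSMUSG00000067818, chr2:156775420-156781658, plus strand), the regulatory light chain whose phosphorylation drives contraction, was not called after Cre in the fit of all libraries. It averaged 430.3 ± 29.5 CPM in Vhl Cre and 406 ± 19.4 CPM in Vhl GFP libraries, 489 ± 9.68 CPM in Vhl/Rassf1a Cre and 481 ± 63.4 CPM in Vhl/Rassf1a GFP libraries. The Cre effect was 0.083 ± 0.075 (adjusted p = 0.432) and 0.026 ± 0.075 (adjusted p = 0.839) on the log2 scale, and the SD of 63.4 CPM in Vhl/Rassf1a GFP libraries was the widest of any group for Myl9. The highest of these libraries, replicate 2, is one of the pair that stood apart, and without that pair the Cre effect in Vhl/Rassf1a cells was 0.14 (adjusted p = 0.042). Against WT GFP, at 515 ± 24.9 CPM, Myl9 fell in Vhl GFP (-0.34 ± 0.075, adjusted p = 0.00109) and in Rassf1a GFP libraries (-0.35 ± 0.075, adjusted p = 0.00176).

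The tropomyosins coil along the actin filament and set which myosins and binding proteins reach it. Tpm1 (ENSMUSG00000032366, chr9:67022590-67049406, minus strand) had 1345, 1363 and 1332 CPM in Vhl Cre libraries, against 1575, 1609 and 1702 CPM in Vhl GFP libraries. In Vhl/Rassf1a cells it had 1461, 1465 and 1455 CPM with Cre and 1648, 1679.5 and 1679.8 CPM with GFP. In both genotypes that lost Vhl, every Cre library was below every GFP library, by wide gaps. The log2 fold change was -0.27 ± 0.034 in Vhl cells with an adjusted p of 8.88e-07, and -0.19 ± 0.034 in Vhl/Rassf1a cells (adjusted p = 0.000129). In cells that kept Vhl, Tpm1 stood at 1723, 1776 and 1735 CPM in Rassf1a Cre and 1769, 1752 and 1739 CPM in Rassf1a GFP libraries. It stood at 2074, 2032 and 2024 CPM in WT Cre and 2093, 2132 and 2032 CPM in WT GFP libraries. These pairs overlapped, with log2 fold changes of -0.0071 (adjusted p = 0.998) and -0.03 (adjusted p = 0.965). The Cre effect on Tpm1 in Vhl cells minus that in WT cells was -0.24 ± 0.048 (adjusted p = 0.000521), and that in Vhl/Rassf1a cells minus that in Rassf1a cells was -0.19 ± 0.048 (adjusted p = 0.00982). The effect in Vhl/Rassf1a cells minus that in WT cells was -0.16 ± 0.048 (adjusted p = 0.0232), a call lost without WT GFP replicate 3 or WT Cre replicate 1, in a fit of just these groups (adjusted p = 0.094) and with no filter (adjusted p = 0.226). Between Vhl/Rassf1a and Vhl cells the difference was 0.082 ± 0.048 (adjusted p = 0.422), which did not pass. Tpm1 was also low without Cre: against WT GFP its log2 fold change was -0.36 ± 0.034 in Vhl GFP, -0.32 ± 0.034 in Vhl/Rassf1a GFP and -0.25 ± 0.034 in Rassf1a GFP libraries (adjusted p = 2.9e-08, 3.17e-07 and 1.02e-05). Its levels fell into 5 steps without overlap: WT, Rassf1a, the GFP libraries of Vhl/Rassf1a and Vhl, Vhl/Rassf1a Cre, and Vhl Cre.

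Tpm2 (ENSMUSG00000028464, chr4:43514711-43523765, minus strand), the beta-tropomyosin, was not called after Cre in any genotype, with log2 fold changes of 0.047 in Vhl, -0.018 in Vhl/Rassf1a, -0.04 in Rassf1a and -0.13 in WT cells (adjusted p = 0.674, 0.891, 0.998 and 0.743). Without the pair of libraries that stood apart it was 0.086 in Vhl/Rassf1a cells (adjusted p = 0.154), of the opposite sign, and 0.07 in Rassf1a cells (adjusted p = 0.563), also of the opposite sign. Tpm2 averaged 602 ± 27.6 CPM in Vhl Cre and 582 ± 7.82 CPM in Vhl GFP libraries, beside 754 ± 41.5 CPM in WT GFP libraries. The fall against WT GFP was -0.37 ± 0.074 in Vhl GFP (adjusted p = 0.000432) and -0.31 ± 0.074 in Rassf1a GFP libraries (adjusted p = 0.00456). Cald1 (ENSMUSG00000029761, chr6:34598500-34775473, plus strand), caldesmon, which blocks myosin from tropomyosin-coated actin, varied least of the 10. It averaged 2188 ± 47.3 CPM in Vhl Cre and 2049 ± 40.9 CPM in Vhl GFP libraries, and 2193 ± 24.4 CPM in Vhl/Rassf1a Cre and 1995 ± 213 CPM in Vhl/Rassf1a GFP libraries. Cre libraries lay above GFP libraries in both genotypes without overlap, but the log2 fold changes of 0.095 ± 0.067 (adjusted p = 0.293) and 0.14 ± 0.067 (adjusted p = 0.134) did not pass. In a fit of only the Vhl groups the effect passed (adjusted p = 0.0182), and without the pair of libraries that stood apart the effect in Vhl/Rassf1a cells was 0.051 (adjusted p = 0.427). The single call for Cald1 in the fit of all libraries was a fall in Rassf1a GFP against WT GFP libraries (-0.23 ± 0.067, adjusted p = 0.0172), lost without WT GFP replicate 1 or 2 or Rassf1a GFP replicate 1, and in a fit of only these groups (adjusted p = 0.106).

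Ratios of counts within a library show how the balance between related genes shifted; they are given without a test. Tagln over Acta2 was 0.616 ± 0.00356 in Vhl Cre and 0.506 ± 0.00783 in Vhl GFP libraries, and 0.59 ± 0.0149 in Vhl/Rassf1a Cre and 0.474 ± 0.00646 in Vhl/Rassf1a GFP libraries (SD, n = 3 each). In both genotypes the Cre and GFP libraries did not overlap. The ratio was 0.489 ± 0.00697 in Rassf1a Cre and 0.473 ± 0.0161 in Rassf1a GFP, and 0.437 ± 0.0103 in WT Cre and 0.431 ± 0.01 in WT GFP libraries, with overlap in both. Tpm1 over Tpm2 was 2.24 ± 0.104 in Vhl Cre and 2.80 ± 0.0884 in Vhl GFP libraries. In Vhl/Rassf1a cells it ran 2.08 to 2.11 with Cre and 2.09 to 2.54 with GFP, overlapping through 1 GFP library. Acta2 over Actg2 was lower on average with Cre in all 4 genotypes, at 18.2 ± 0.369 in Vhl Cre and 19.9 ± 1.35 in Vhl GFP libraries, and at 18 ± 0.585 in WT Cre and 21.1 ± 0.875 in WT GFP libraries. Vhl libraries overlapped and the other 3 genotypes did not. Cnn1 over Cnn2 was lower with Cre in WT cells, 0.497 ± 0.00585 in WT Cre and 0.552 ± 0.00915 in WT GFP libraries, without overlap. It was higher with Cre in Vhl/Rassf1a cells, 0.481 ± 0.00769 in Vhl/Rassf1a Cre and 0.457 ± 0.0022 in Vhl/Rassf1a GFP libraries, also without overlap. In Vhl cells it was 0.482 ± 0.0122 with Cre and 0.45 ± 0.0393 with GFP, and in Rassf1a cells 0.388 ± 0.00679 with Cre and 0.395 ± 0.0109 with GFP, with overlap in both.

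**Figure D4:**
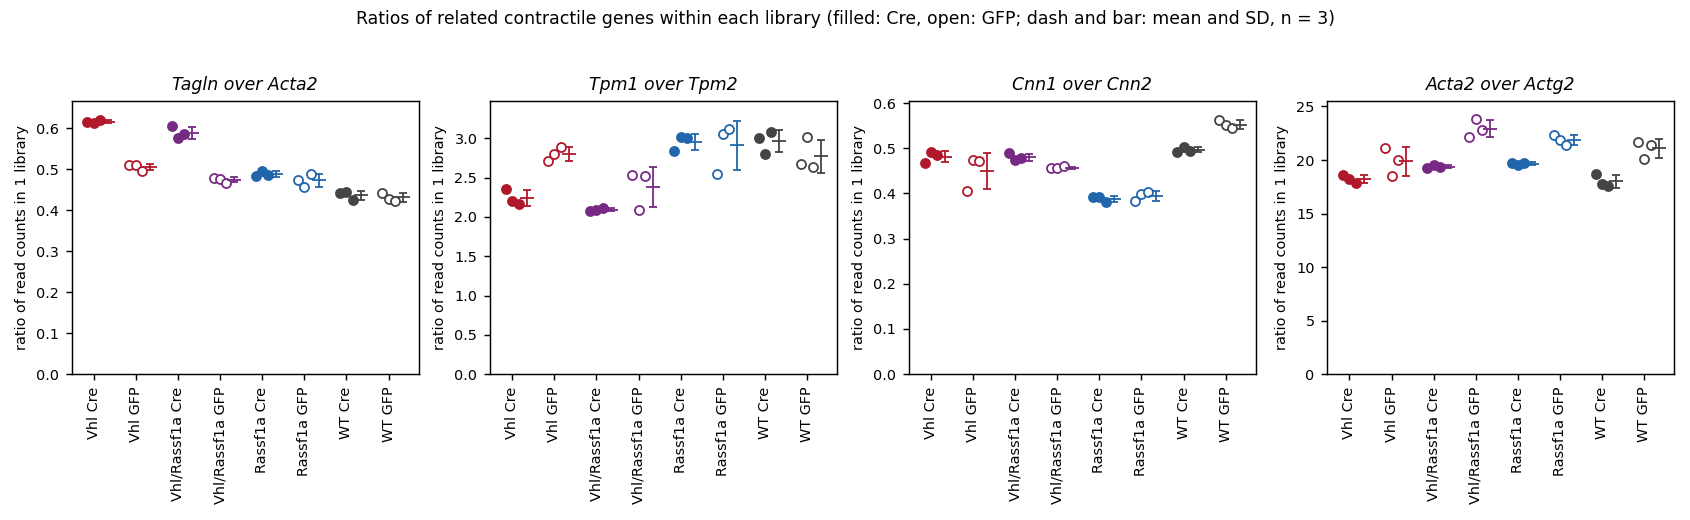
Ratio of counts between related genes within each library (Tagln over Acta2, Tpm1 over Tpm2, Cnn1 over Cnn2, Acta2 over Actg2), with Cre filled and GFP open and the dash and bar the mean and SD of 3 libraries. Tagln over Acta2 runs 0.614 to 0.62 in Vhl Cre and 0.497 to 0.51 in Vhl GFP libraries, without overlap.

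Other genes of the same machinery moved in both directions too. Of 22 tested other smooth muscle genes, 9 rose and 3 fell in Vhl Cre against Vhl GFP libraries, with a median log2 fold change of 0.11, and 7 rose and 3 fell in Vhl/Rassf1a Cre against Vhl/Rassf1a GFP libraries, with a median of 0.052. Over all tested genes 17.4% rose and 18.7% fell in Vhl cells and 14.9% rose and 14.8% fell in Vhl/Rassf1a cells. Kcnmb1, the beta subunit of the large-conductance potassium channel of smooth muscle, rose (1.39 ± 0.14, adjusted p = 3.75e-08) and Synm, an intermediate filament protein, fell (-0.66 ± 0.063, adjusted p = 1.64e-08) in Vhl Cre libraries. Npnt, an extracellular matrix ligand of integrins, rose in Vhl/Rassf1a Cre libraries (0.64 ± 0.056, adjusted p = 8.75e-09). Of 26 broadly expressed actomyosin and focal adhesion genes, 7 rose and 5 fell in Vhl and 3 rose and 5 fell in Vhl/Rassf1a cells. Among them Myl12b, a nonmuscle regulatory light chain, and Cnn3, the nonmuscle calponin, fell in Vhl Cre libraries (-0.57 ± 0.062, adjusted p = 1.33e-07 and -0.36 ± 0.043, adjusted p = 4.02e-07). Myh10, a nonmuscle myosin heavy chain, and Vcl, vinculin, fell in Vhl/Rassf1a Cre libraries (-0.32 ± 0.04, adjusted p = 1.86e-06 and -0.26 ± 0.049, adjusted p = 0.00022). In WT cells 1 rose and 1 fell of the 22, Synpo2 and Fhl1, and in Rassf1a cells Synpo2 alone rose (0.33 ± 0.061, adjusted p = 0.0101); 0 of the 26 passed in either genotype, where 1.26% of tested genes changed in WT and 0.392% in Rassf1a cells.

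Of 13 genes for SRF, its cofactors and partners, 3 rose and 2 fell in Vhl Cre libraries and 5 rose and 0 fell in Vhl/Rassf1a Cre libraries. Klf4, which represses smooth muscle genes, rose in both (0.50 ± 0.066, adjusted p = 2.17e-06 in Vhl and 0.30 ± 0.065, adjusted p = 0.0011 in Vhl/Rassf1a cells). Of 20 genes for TGF-beta ligands, receptors, SMADs and feedback, 6 rose and 6 fell in Vhl cells and 6 rose and 6 fell in Vhl/Rassf1a cells. The TGF-beta co-receptor Tgfbr3 fell in Vhl cells (-0.98 ± 0.057, adjusted p = 4.73e-12). Of 21 myofibroblast matrix and adhesion genes, 6 rose and 6 fell in Vhl cells, 7 rose and 2 fell in Vhl/Rassf1a cells, 0 passed in Rassf1a cells and 7 rose and 0 fell in WT cells. The collagen cross-linking enzyme Loxl2 was the first of them by adjusted p in each genotype with a call, at 1.26 ± 0.071, adjusted p = 2.8e-12 in Vhl, 1.24 ± 0.071, adjusted p = 5.49e-12 in Vhl/Rassf1a and 0.39 ± 0.07, adjusted p = 0.0041 in WT cells. After Cre, 36.1% of tested genes changed in Vhl, 29.7% in Vhl/Rassf1a, 0.392% in Rassf1a and 1.26% in WT cells. Among GFP libraries, of the 22 smooth muscle genes 1 rose and 12 fell in Vhl GFP against WT GFP libraries and 1 rose and 13 fell in Rassf1a GFP against WT GFP libraries, while of the 21 matrix genes 11 rose and 3 fell and 13 rose and 2 fell. Over all tested genes 32.1% changed and 14.9% fell in Vhl GFP libraries, and 16.1% changed and 6.68% fell in Rassf1a GFP libraries.

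**Figure D5:**
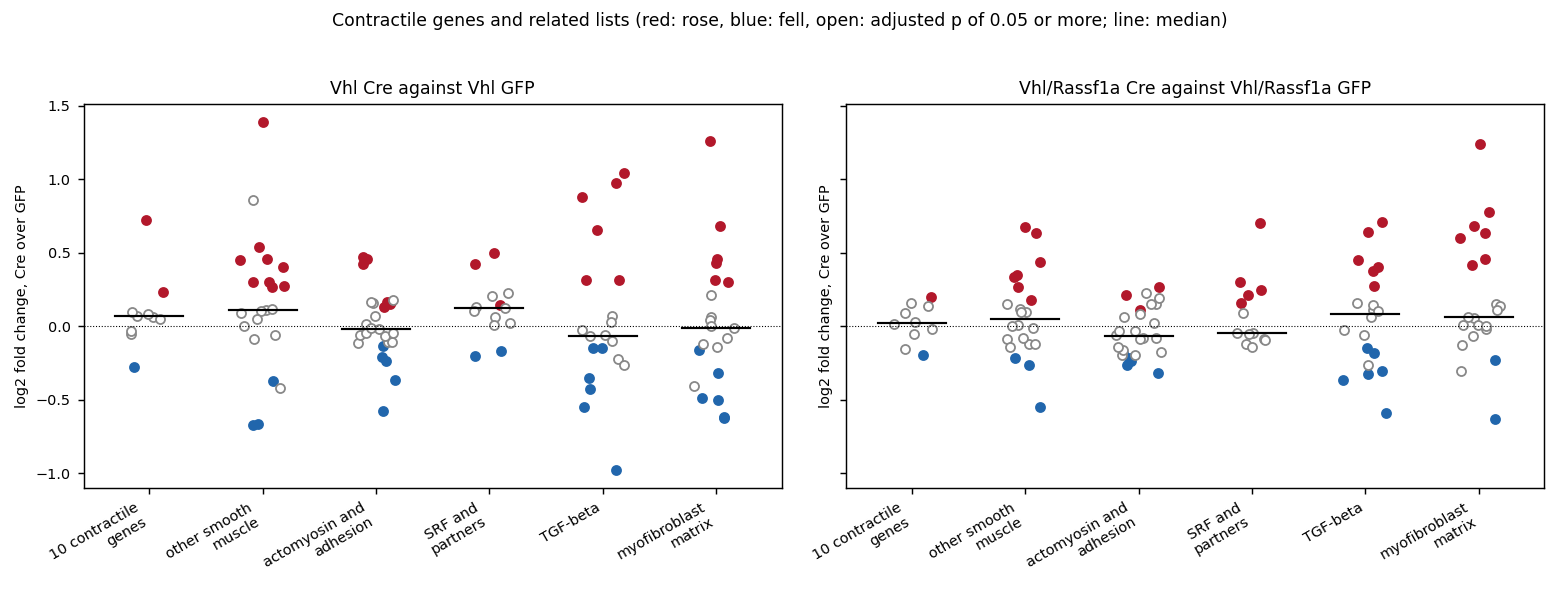
Log2 fold change of Cre over GFP for the 10 contractile genes and for 5 lists of related genes in Vhl and in Vhl/Rassf1a cells; red points rose, blue points fell, open points did not pass an adjusted p of 0.05, and lines are list medians. Each list holds points on both sides of 0, and the median of the 10 genes is 0.067 in Vhl and 0.021 in Vhl/Rassf1a cells.

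Markers of other cells moved along with these changes, and their part in the results was not tested. The summed level of 14 striated muscle markers, 9 of which stayed under 1 CPM in every group, was 391 to 470 CPM in Vhl Cre and 140 to 158 CPM in Vhl GFP libraries, and 474 to 498 CPM in Vhl/Rassf1a Cre and 200 to 251 CPM in Vhl/Rassf1a GFP libraries. Acta1, skeletal muscle actin, made up most of it and rose in both (2.02 ± 0.10, adjusted p = 5.93e-13 and 1.33 ± 0.10, adjusted p = 7.53e-10), while Myod1, Myog, Myf5 and Ckm, which define skeletal muscle, stayed at or below 0.164 CPM in every library. The 9 pericyte and mural markers summed to 1030 to 1130 CPM in Vhl Cre and 1180 to 1240 CPM in Vhl GFP libraries, and to 928 to 970 CPM in Vhl/Rassf1a Cre and 1180 to 1460 CPM in Vhl/Rassf1a GFP libraries. The 8 epithelial markers, mostly Krt19, summed to 127 to 147 CPM in Vhl Cre and 38.5 to 39.4 CPM in Vhl GFP libraries, and to 194 to 202 CPM in Vhl/Rassf1a Cre and 75.7 to 97.7 CPM in Vhl/Rassf1a GFP libraries. The 6 mesothelial markers, which include Krt19, summed to 126 to 145 CPM in Vhl Cre and 42 to 52.2 CPM in Vhl GFP libraries, and to 191 to 197 CPM in Vhl/Rassf1a Cre and 78.8 to 97.2 CPM in Vhl/Rassf1a GFP libraries. The 8 endothelial markers summed to 16.6 to 18.2 CPM in Vhl Cre and 7 to 10.3 CPM in Vhl GFP libraries, and to 17 to 18.9 CPM in Vhl/Rassf1a Cre and 13.1 to 14.4 CPM in Vhl/Rassf1a GFP libraries, with Pecam1, Cdh5 and Cldn5 at most 0.453 CPM. Kdr was the most abundant of them, at a mean of 7.55 CPM. The endothelial calls with the smallest adjusted p were rises, of Kdr (0.94) and Emcn (1.59) in Vhl Cre and of Esam (1.47) and Tek (0.75) in Vhl/Rassf1a Cre libraries. The 7 macrophage markers summed to 5.48 to 5.80 CPM in Vhl Cre and 5.12 to 5.72 CPM in Vhl GFP libraries, and to 6.16 to 7.27 CPM in Vhl/Rassf1a Cre and 4.08 to 5.36 CPM in Vhl/Rassf1a GFP libraries. The 10 fibroblast markers summed to 25400 to 28000 CPM in Vhl Cre and 32500 to 34300 CPM in Vhl GFP libraries, and to 26400 to 28400 CPM in Vhl/Rassf1a Cre and 26200 to 33600 CPM in Vhl/Rassf1a GFP libraries. Of these 10 markers, 5 fell in Vhl cells, where 18.7% of tested genes fell, and 1 rose and 1 fell in Vhl/Rassf1a cells, where 29.7% changed. In the GFP comparisons they summed to 32500 to 34300 CPM in Vhl GFP, 26200 to 33600 CPM in Vhl/Rassf1a GFP and 31400 to 38000 CPM in Rassf1a GFP libraries, against 25900 to 29000 CPM in WT GFP libraries. The striated muscle markers summed to 140 to 158 CPM in Vhl GFP and 146 to 178 CPM in Rassf1a GFP libraries, against 223 to 278 CPM in WT GFP libraries. Epithelial markers summed to 38.5 to 39.4 and 44.8 to 64.6 CPM in these genotypes, against 76.8 to 94.9 CPM in WT GFP libraries, and endothelial markers to 7 to 10.3 and 7.21 to 9.30 CPM, against 13.1 to 14.4 CPM. The lower contractile RNAs of Vhl GFP and Rassf1a GFP libraries thus stood beside higher summed fibroblast markers. Summed striated muscle, epithelial and endothelial markers were lower there. In Vhl/Rassf1a GFP libraries, where 4 of the 10 genes fell, the sums of all these lists overlapped those of WT GFP libraries. Col1a1 and Col1a2, at means of 13700 and 8210 CPM over all libraries, made up most of the fibroblast sum.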

How the data were processed

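Raw counts per gene for 24 libraries were used as the authors deposited them, with 1 row per Ensembl gene and 3 libraries in each of 8 groups. Per the labels' protocols, a NucleoSpin kit gave the RNA and a TruSeq Stranded kit the libraries. The submitters' processing notes name Trimmomatic 0.38, STAR 2.5.2b and the build GRCm38. How reads were assigned to genes, with which annotation and whether by strand, is not stated in these sources. Symbols, exon lengths and overlaps came from GENCODE for GRCm38, which named 45143 of 45706 identifiers. Reads shared between near-identical actin or tropomyosin genes may have been dropped or split.

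edgeR 4.0.16 in R 4.3.3 tested the counts by its quasi-likelihood F test, two-sided, with TMM normalization and filterByExpr (minimum count 10, minimum total 15), which kept 16573 genes. All 24 libraries entered 1 model with a mean per group and 16 residual degrees of freedom; the common biological coefficient of variation was 7.73%. P-values were adjusted by Benjamini-Hochberg over all tested genes in each of 12 comparisons, with a threshold of 0.05. CPM use TMM-scaled library sizes. The SE of a log2 fold change is its size over the square root of F. The script was tested on simulated data. All replicate pairs differed by more than sampling noise: the lowest chi-square over its degrees of freedom was 2.78. Replicate numbers did not pair the libraries.

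Every one of the 10 genes is named in every comparison. From each related or marker list, up to 2 genes with the smallest adjusted p in a Cre against GFP comparison are named, and other genes only as defining markers or as what a list mostly holds, chosen after their values were seen; 1 gene that this rule would name is not reported here. The 10 genes and the lists were chosen with earlier results of these data known. Alternatives were DESeq2 1.42.0 with its size factors or its Wald test, no filter, a fit of just the groups compared, a replicate block, each library left out, both libraries that stood apart left out, and library totals without TMM, the last chosen after seeing the data.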

Additional observations from a re-analysis of the deposited data

Results flagged for a closer look

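The Cre effect differed between genotypes for 7 pairings of a gene and a comparison, each tested as a difference of Cre effects in edgeR with adjustment over all tested genes. In Vhl cells minus WT cells the difference was 0.68 ± 0.095 for Myh11 (SE, adjusted p = 8.81e-06), 0.29 ± 0.09 for Tagln (adjusted p = 0.023), 0.30 ± 0.10 for Cnn1 (adjusted p = 0.0365) and -0.24 ± 0.048 for Tpm1 (adjusted p = 0.000521), on the log2 scale. For Tpm1 it was -0.16 ± 0.048 in Vhl/Rassf1a cells minus WT cells (adjusted p = 0.0232) and -0.19 ± 0.048 in Vhl/Rassf1a cells minus Rassf1a cells (adjusted p = 0.00982). For Myh11 it was -0.52 ± 0.095 in Vhl/Rassf1a cells minus Vhl cells (adjusted p = 0.00126). Each group had 3 libraries, and the comparisons share libraries. Between Vhl and WT cells, Cnn1 differed although its Cre effect passed the threshold in neither genotype.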

How the results depend on the processing

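Of 33 called values of the 10 genes, 24 kept their sign and their call under every setting, 28 under every setting other than leaving out 1 library, and 0 changed sign; of 87 values not called, 31 changed sign while uncalled. Counts of called genes that moved by over 1.5 times were as follows. With no filter on low counts, 1 of the 10 passed in WT cells after Cre, Cnn1, and 2 between Vhl/Rassf1a and Rassf1a cells. When just the groups compared were fitted, 1 passed in WT cells and 1 in Vhl/Rassf1a cells after Cre, 2 in Vhl/Rassf1a GFP against WT GFP libraries and 0 between Vhl/Rassf1a and WT cells. Without both libraries that stood apart, the counts were 1 in Rassf1a and 4 in Vhl/Rassf1a cells after Cre, 7 in Vhl/Rassf1a GFP against WT GFP libraries and 6 between Vhl/Rassf1a and WT cells. Smaller moves were 6, 10, 9 and 3 with no filter in Vhl/Rassf1a, Vhl and Rassf1a GFP against WT GFP libraries and in Vhl/Rassf1a cells after Cre, where size factors of DESeq2, its Wald test and library totals also gave 3. Fitting just the groups compared gave 4 in Vhl cells after Cre and 10 and 7 in Vhl GFP and Rassf1a GFP libraries, and leaving out the libraries that stood apart gave 10 in Rassf1a GFP libraries. Leaving out 1 library at a time gave 3 to 3 calls in Vhl and 1 to 3 in Vhl/Rassf1a cells after Cre, 0 to 0 in Rassf1a and in WT cells, 8 to 9 in Vhl GFP, 7 to 8 in Rassf1a GFP and 2 to 6 in Vhl/Rassf1a GFP against WT GFP libraries. The same gave 2 to 4 between Vhl and WT, 0 to 4 between Vhl/Rassf1a and WT, 1 to 1 between Vhl/Rassf1a and Vhl, 1 to 2 between Vhl/Rassf1a and Rassf1a, and 0 to 0 between Rassf1a and WT cells. Why these differ was not tested.

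Same-numbered libraries deviated together at correlations of -0.385 to 0.264, so the numbers mark no pairing; with the replicate block the counts of the 10 were 3 in Vhl and 2 in Vhl/Rassf1a cells after Cre and 9, 8 and 4 in Vhl, Rassf1a and Vhl/Rassf1a GFP against WT GFP libraries, as without it, and no other count of the 10 moved. Over all tested genes, calls after Cre in Rassf1a cells were 65, against 103 by the Wald test, 151 with no filter, 12 with just the groups compared in the fit, 112 without the libraries that stood apart and 24 to 67 with 1 library left out. Those in WT cells were 209, and 87 to 187 with 1 library left out. Fitting just the groups compared gave 3008 calls and not 4919 in Vhl/Rassf1a cells after Cre, 1466 and not 2664 in Rassf1a GFP and 778 and not 1913 in Vhl/Rassf1a GFP libraries, and 631 and not 1010 between Vhl/Rassf1a and Vhl cells, where leaving out the libraries that stood apart gave 1856. Between Rassf1a and WT cells, 1 call became 22 with no filter, 0 with just the groups compared in the fit and 2 without the libraries that stood apart. Between Vhl/Rassf1a and Vhl cells, 56.4% of calls were upward, and 45.6% with library totals in place of TMM. Among the settings other than leaving out 1 library, none shifted the median of all genes by over 0.0335 on the log2 scale. With 3 libraries a group and an SE near 0.07, log2 changes of the 10 genes under about 0.2 were mostly not detectable.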

Other observations

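Some other balances between the 10 genes shifted within libraries; they are described without a test. Myl9 over Tpm1, a myosin light chain against a tropomyosin, ran 0.296 to 0.335 in Vhl Cre and 0.246 to 0.251 in Vhl GFP libraries, without overlap. In Vhl/Rassf1a cells it ran 0.327 to 0.341 with Cre and 0.261 to 0.33 with GFP, overlapping through the library that stood apart. Tagln over Cnn1 was higher with Cre in all 4 genotypes without overlap, at 4.79 ± 0.0667 in Vhl Cre and 4.27 ± 0.244 in Vhl GFP libraries, 4.81 ± 0.0365 in Vhl/Rassf1a Cre and 4.36 ± 0.0654 in Vhl/Rassf1a GFP libraries, 5.45 ± 0.148 in Rassf1a Cre and 4.95 ± 0.15 in Rassf1a GFP libraries, and 4.24 ± 0.0615 in WT Cre and 3.71 ± 0.0671 in WT GFP libraries (SD, n = 3 each).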
